A study of Mus musculus with 18 samples.

Results

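Polycomb repressive complex 2 (PRC2) keeps developmental genes silent by methylating histone H3. Its catalytic subunit is either Ezh2, the main enzyme of dividing cells, or the paralog Ezh1, which is the weaker methyltransferase and is best known from resting and differentiated cells. Both enzymes work only together with the core subunits Eed and Suz12, and the genes they cover in fibroblasts include many Hox genes, transcription factors of other lineages and genes of cell signalling.

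Ezh1 pre-rescue cells were compared with Ezh2 null cells to ask which genes are kept at another level when Ezh1 is overexpressed before Ezh2 is deleted. The comparison rests on 4 arrays, 2 for each group, chosen by their titles out of 10 arrays of the rescue experiment and 18 arrays in all. Every array held RNA of iMEFs of clone C2, which are mouse embryonic fibroblasts transformed with c-Myc and grown from 1 cell of a pool with the genotype Ezh2 flox/Δ;ROSA26-CreERT2, in which tamoxifen deletes the remaining Ezh2 allele. Ezh2 null cells (labelled Ezh2 -/-, Ezh2-mutant) had lost Ezh2 and received no other Ezh gene, whereas Ezh1 pre-rescue cells were infected with a retrovirus for Flag-tagged Ezh1, under hygromycin selection, before Ezh2 was deleted. Beside them stand control cells (Ezh2 WT), Ezh2 pre-rescue cells, which received Flag-tagged Ezh2 before the deletion, and Ezh2 post-rescue cells, which received it afterwards, each on 2 arrays. For treatment the labels name vehicle (EtOH) or Tamoxifen without saying which array had which, and they give no time after tamoxifen for these arrays. No arrays of cells with an empty retrovirus were analysed here, so that an effect of Ezh1 and an effect of infection and selection cannot be told apart. A separate time course of the same clone (vehicle, and 5, 18 and 32 days after tamoxifen, 2 arrays each) was used below to choose genes independently of the rescue arrays.

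The values are log2 intensities, so that a difference of 1 is a 2-fold change, and every value after ± is the standard error from the linear model with n = 2 arrays per group. For the time course and for control, null, Ezh1 and Ezh2 pre-rescue cells, the paper describes the 2 measurements as biological replicates. The labels do not say how the replicates were kept apart in culture. Each p-value rests on how far such replicates of 1 clone differ. Replicate arrays of 1 group correlated at r of 0.994 to 0.998 across 18820 genes, and the number of arrays limits the precision. The 7 fibroblast markers averaged 9.97 to 10.05 on the Ezh1 pre-rescue arrays and 9.46 to 9.62 on the null arrays, while 4 epithelial and 4 endothelial markers stayed between 5.24 and 5.61 on all 4 arrays. The 4 blood markers averaged 6.11 to 6.19 and 5.70 to 5.88, with 0 passing, and Lyz2 among them gave 0.96 ± 0.29 (adjusted p = 0.114).

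Ezh1 itself was the check of the labels. It read 9.51 and 9.19 on the null arrays and 11.68 and 11.85 on the Ezh1 pre-rescue arrays, a 5.33-fold difference (2.41 ± 0.16, adjusted p = 0.00162). The overexpression thus stood on both Ezh1 pre-rescue arrays and on neither null array. Ezh2 read 10.46 and 10.48 in null cells against 10.36 and 10.56 in control cells, so its probe set does not report the deletion and checks nothing about it.

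Among 18820 genes, 271 were lower in Ezh1 pre-rescue than in null cells (1.44%) and 162 were higher (0.861%) at an adjusted p under 0.05. At a change of at least 2-fold, 71 were lower (0.377%) and 38 higher (0.202%). The lower genes reached further: 11 were at least 4-fold lower and 5 were at least 4-fold higher, and 5 were at least 8-fold lower against 0 at least 8-fold higher. The median gene differed by 0.03. Of the lower genes 71.6%, and of the higher genes 93.2%, lay above the median level of all genes. How many genes passed depended on single arrays, and the cause was not tested. Without either Ezh1 pre-rescue array, 3 genes were higher and 11 (without replicate 1) or 18 (without replicate 2) lower. Without null replicate 1 the counts were 378 and 536, and without null replicate 2 they were 24 and 78. Leaving out a control array gave 817 and 800, an Ezh2 pre-rescue array 41 and 97, and an Ezh2 post-rescue array 29 and 77. Of 95 genes named in the text that passed, 10 passed without each of the 10 arrays in turn, namely Ezh1, Phf19, Fam180a, C1qtnf3, Plag1, Rorb, Chn1, Chchd7, Tlcd4 and Hoxb13. The other 85 all missed the threshold without Ezh1 pre-rescue replicate 1, 82 did so without its replicate 2, 49 without null replicate 2 and 10 without null replicate 1, 43 without an Ezh2 post-rescue and 31 without an Ezh2 pre-rescue array. The balance of both directions also moved with the scaling of the arrays, from 37.4% higher among the genes that passed to 56.8% with median centring and 54.1% with quantile normalization.

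**Figure D1:**
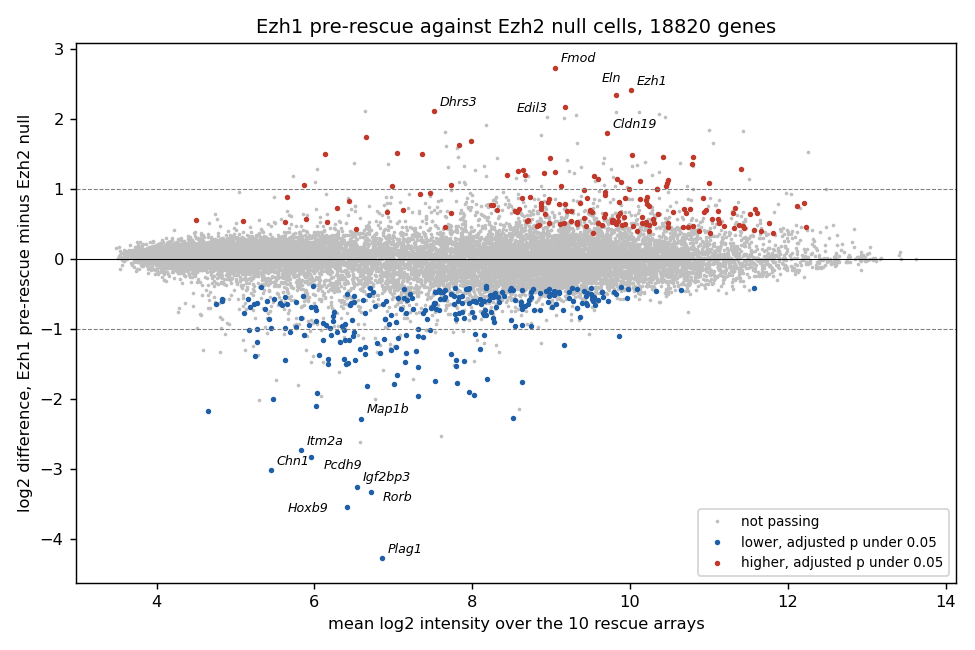
Log2 difference between Ezh1 pre-rescue and Ezh2 null cells (y axis) against the mean log2 intensity over the 10 rescue arrays (x axis), 1 point per gene; coloured points passed an adjusted p of 0.05 and dashed lines mark 2-fold. The lower genes extend to −4.27 (Plag1) and 71.6% of them lie above the median level, whereas the higher genes end at 2.73 (Fmod) and 93.2% of them do.

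The neighbouring genes Plag1 and Chchd7 were both among the lower genes. Plag1 encodes a zinc finger transcription factor that drives fetal growth genes and is an oncogene in salivary gland tumours. It read 9.54 and 9.31 in null cells and 4.86 and 5.45 in Ezh1 pre-rescue cells, beside 5.07 and 5.11 in control cells, the largest difference of all genes tested (−4.27 ± 0.25, 19.3-fold, adjusted p = 0.00125). Chchd7, which encodes a small mitochondrial protein and is transcribed away from Plag1, read 9.92 and 9.60 against 7.58 and 7.40 (−2.27 ± 0.11, adjusted p = 0.000424). For both genes the groups lay far apart and the Ezh1 pre-rescue arrays lay beside (Plag1) or below (Chchd7) the control arrays. In Ezh2 post-rescue cells, by contrast, Plag1 averaged 9.65 and Chchd7 9.77, as high as in null cells.

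Other genes of the lower group included regulators of signalling and of the cytoskeleton. Chn1, a Rac-inactivating protein of axon guidance, read 7.70 and 7.90 in null cells and 4.57 and 4.99 in Ezh1 pre-rescue cells (−3.02 ± 0.21, adjusted p = 0.00211). Tlcd4 read 6.48 and 6.50 against 4.27 and 4.37 (−2.16 ± 0.08, adjusted p = 0.000144), the smallest adjusted p of the comparison. The protocadherin gene Pcdh9 differed by −2.82 ± 0.33, the membrane protein gene Itm2a by −2.73 ± 0.37, Map1b, which encodes a microtubule-associated protein, by −2.28 ± 0.27, the scaffold gene Iqgap2 by −2.09 ± 0.28 and the chromatin remodeller gene Cecr2 by −1.99 ± 0.18. All 5 passed (adjusted p from 0.00874 to 0.0181), and in each the lower null array stood above the higher Ezh1 pre-rescue array. Such a gap between the groups is not rare here, since 22.2% of all genes had null arrays above both Ezh1 pre-rescue arrays and 31.1% the reverse. Rragd, a Rag GTPase of the mTORC1 pathway, read 9.07 and 8.93 against 7.38 and 7.05 (−1.79 ± 0.19, adjusted p = 0.0111). Prkaa2, a catalytic subunit of AMPK, differed by −1.77 ± 0.16 and Kcnip3, a calcium-binding potassium channel partner, by −1.75 ± 0.17 (adjusted p = 0.00828 and 0.00874). These 3 genes stayed above their control level, at 7.21, 7.63 and 8.31 on average in Ezh1 pre-rescue cells against 6.16, 6.65 and 7.46 in control cells.

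**Figure D2:**
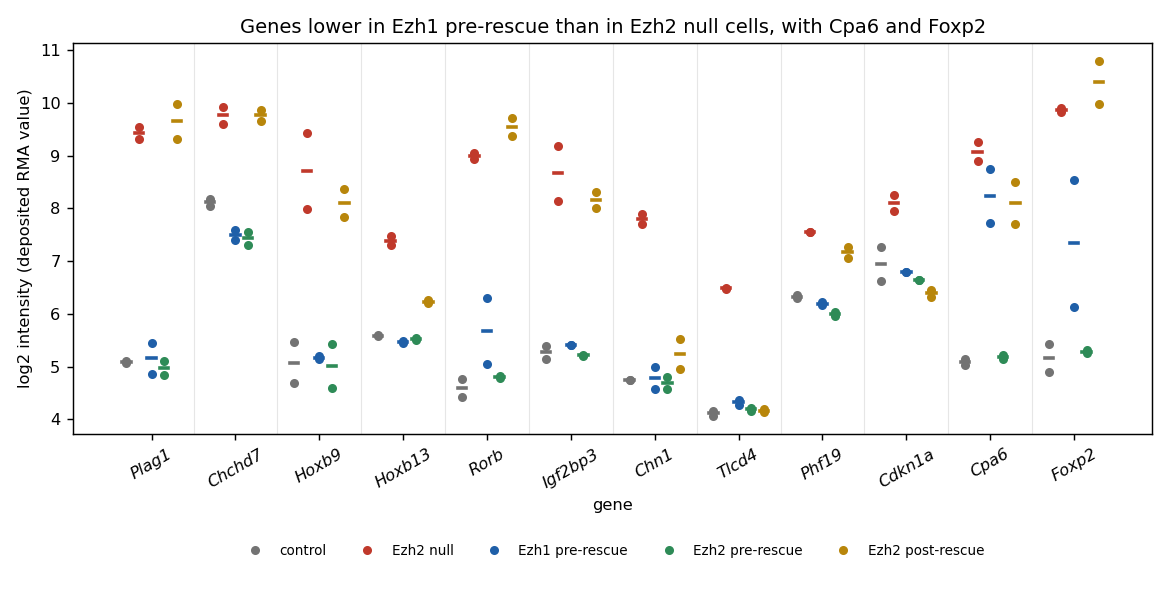
Log2 intensity (y axis) of 12 genes (x axis) on the 10 rescue arrays, 1 point per array coloured by group, with a bar at the group mean. For Plag1 to Cdkn1a both Ezh1 pre-rescue points lie below both null points, and for Foxp2 and Cpa6 the 2 Ezh1 pre-rescue points lie apart from each other.

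Hox genes give cells their position along the body axis and are textbook PRC2 targets. Of 36 measured, 6 were lower in Ezh1 pre-rescue cells, 1 was higher and 29 did not pass, with a median of 0.00 beside 0.03 for all genes. These shares were 16.7% lower and 2.78% higher, beside 1.44% and 0.861% of all genes. The other settings that keep every array gave 4 to 6 lower and 1 to 3 higher. The HoxB cluster held 4 of the 6. Hoxb9 read 7.99 and 9.42 in null cells and 5.20 and 5.14 in Ezh1 pre-rescue cells (−3.54 ± 0.49, 11.6-fold, adjusted p = 0.0192). Hoxb13 read 7.47 and 7.30 against 5.45 and 5.48 (−1.92 ± 0.08, adjusted p = 0.000258) and Hoxb5 read 7.06 and 7.16 against 5.51 and 5.86 (−1.42 ± 0.17, adjusted p = 0.0134). On all 3 the Ezh1 pre-rescue arrays lay beside the control arrays and far below the null arrays. The others were Hoxb6, the HoxA gene Hoxa10 (−1.26 ± 0.14, adjusted p = 0.0111) and Hoxd10. Hoxc5 went the other way, at 8.69 and 8.97 in null cells and 10.01 and 9.94 in Ezh1 pre-rescue cells (1.14 ± 0.13, adjusted p = 0.0111), close to 10.36 and 10.18 in control cells. The 6 lower genes became 3 without null replicate 2, and 1 or 2 without Ezh1 pre-rescue replicate 1 or 2.

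Of 139 transcription factor genes of development outside the Hox clusters, 7 were lower and 0 higher. The lower share was 5.04%, beside 1.44% of all genes, and the list median was 0.02. The other settings that keep every array gave 5 to 13 lower and 0 to 2 higher. Besides Plag1 the 7 were Rorb, Foxf1, Ebf2, Gata3, Foxa1 and Dlx4. Rorb, an orphan nuclear receptor of retina and brain, read 8.94 and 9.06 in null cells and 5.05 and 6.30 in Ezh1 pre-rescue cells (−3.33 ± 0.35, adjusted p = 0.00939). Foxf1, a forkhead factor of lung and gut mesenchyme, differed by −1.94 ± 0.30, Ebf2, a factor of brown fat and bone precursors, by −1.81 ± 0.18 and Foxa1, a pioneer factor of endoderm, by −0.85 ± 0.09 (adjusted p = 0.0279, 0.00874 and 0.00874). Ebf2 ended below its control arrays, at 6.17 and 5.82 against 7.34 and 6.63, as it did with Ezh2 given first (5.81 and 5.76). Its difference from null cells shrank to −0.96 when the mean of all its probe sets was used. The 7 became 2 or 3 without Ezh1 pre-rescue replicate 1 or 2, 11 without null replicate 1 and 16 without a control array.

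The lower group also held genes of fetal growth. Of 15 genes of the insulin-like growth factor (IGF) axis 4 were lower (26.7%, beside 1.44% of all genes) and 0 higher. The list median was −0.004, or −0.485 without the lowest 30% of genes. The 4 were Igf1, the mRNA-binding protein genes Igf2bp1 and Igf2bp3, which hold Igf2 transcripts in fetal tissue, and Stc2. The product of Stc2 restrains release of IGF from its binding proteins. Igf2bp3 read 8.14 and 9.18 in null cells and 5.40 and 5.41 in Ezh1 pre-rescue cells (−3.25 ± 0.28, 9.53-fold, adjusted p = 0.00721), and Igf2bp1 read 9.88 and 10.05 against 8.76 and 8.72 (−1.23 ± 0.12, adjusted p = 0.00874). Both stood near the control arrays, where Igf2bp3 read 5.39 and 5.15 and Igf2bp1 8.85 and 9.08. Igf1, the secreted growth factor, read 9.87 and 8.58 against 7.29 and 7.25 (−1.95 ± 0.37, adjusted p = 0.0475), and its null arrays were far apart. Outside this list, Pappa2, a protease that frees IGF from binding proteins, was higher at 7.10 and 7.05 against 5.86 and 5.29 (1.50 ± 0.19, adjusted p = 0.0152) and stood above its control arrays at 5.85 and 6.16. The 4 lower genes of the axis became 0 without either Ezh1 pre-rescue array and 2 without any 1 Ezh2 pre-rescue or post-rescue array, while 2 were higher without null replicate 1 and 1 without a control array.

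Of 43 axon guidance genes, 4 were lower (9.30%, beside 1.44% of all genes) and 1 higher (2.33%, beside 0.861%). The list median was −0.07, or 0.002 with median centring. The lower ones were the ephrin genes Efna3 (−1.35 ± 0.13, adjusted p = 0.00874) and Efna2 (−1.04 ± 0.12, adjusted p = 0.0134), the netrin receptor gene Unc5a (−0.98 ± 0.10, adjusted p = 0.00874) and the repulsive semaphorin gene Sema3a (−1.28 ± 0.24, adjusted p = 0.0454), and the higher one was the Eph receptor gene Ephb3. The Efna3 difference shrank to −0.74 when the mean of all its probe sets was used. The counts became 0 and 0 without either Ezh1 pre-rescue array, 2 and 0 without null replicate 2 and 7 and 2 without null replicate 1, and Ephb3 also missed the threshold without an Ezh2 pre-rescue or post-rescue array. Of 31 TGF beta and BMP genes, 2 were lower (6.45%, beside 1.44% of all genes) and 0 higher. These were the receptors Bmpr1b at −1.49 ± 0.15 and Tgfbr1 at −0.83 ± 0.10 (adjusted p = 0.00874 and 0.0143). Of 40 Wnt genes, the receptors Fzd9 (1.25 ± 0.12, adjusted p = 0.00874) and Fzd8 (0.77 ± 0.12, adjusted p = 0.0262) were higher and the ligand gene Wnt4 (−0.99 ± 0.17, adjusted p = 0.0389) lower. These shares were 5% higher and 2.5% lower, beside 0.861% and 1.44% of all genes. The other settings that keep every array gave 1 to 3 higher and 0 to 2 lower. Lgr5, the receptor for R-spondins, was higher as well, at 11.35 and 11.29 against 10.06 and 9.68 (1.45 ± 0.14, adjusted p = 0.00874).

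Among PRC2 subunit genes other than Ezh1, Phf19 was the exception. Of 11 measured, 1 was higher (Ezh1), 1 lower (Phf19) and 9 did not pass. In a list this small each of these 2 makes 9.09%, beside 0.861% higher and 1.44% lower of all genes. Phf19, a Polycomb-like subunit that reads methylated histone H3 and brings PRC2 to its targets, read 7.56 and 7.54 in null cells and 6.16 and 6.22 in Ezh1 pre-rescue cells (−1.36 ± 0.09, adjusted p = 0.0016), with control arrays at 6.35 and 6.30. The core gene Eed gave −0.41 ± 0.09 (adjusted p = 0.0635), Suz12 −0.10 ± 0.08 (adjusted p = 0.557) and the cofactor gene Jarid2 0.43 ± 0.12 (adjusted p = 0.0908). With the mean of all its probe sets Eed gave −0.20. Of 18 genes of PRC1, the other Polycomb complex, Cbx2 was lower, at 9.01 and 9.08 against 8.46 and 8.42 (−0.61 ± 0.08, adjusted p = 0.0181). This 1 gene makes 5.56% of that list, beside 1.44% of all genes. None of 12 genes for enzymes that oppose PRC2, such as the demethylase Kdm6a (0.19 ± 0.10, adjusted p = 0.36), passed limma's test, and 1 had an unadjusted p under 0.05.

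The bases upstream of 2 lower and 2 higher genes are shown because CpG-rich promoters are where PRC2 is known to bind. Each window holds the 250 bases before the transcription start of the RefSeq entry (GRCm38.p6), in lower case with each CpG in capitals. Igf2bp3 (chr6:49214955-49215204, minus strand) and Phf19 (chr2:34913977-34914226, minus strand) were lower, Fmod (chr1:134037004-134037253, plus strand) and C1qtnf3 (chr15:10952082-10952331, plus strand) higher.
Igf2bp3: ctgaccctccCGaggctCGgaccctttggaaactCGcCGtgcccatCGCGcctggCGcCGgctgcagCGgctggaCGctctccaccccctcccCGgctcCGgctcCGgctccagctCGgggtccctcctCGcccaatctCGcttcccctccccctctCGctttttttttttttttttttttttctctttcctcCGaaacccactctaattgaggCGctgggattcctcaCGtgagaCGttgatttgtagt
Phf19: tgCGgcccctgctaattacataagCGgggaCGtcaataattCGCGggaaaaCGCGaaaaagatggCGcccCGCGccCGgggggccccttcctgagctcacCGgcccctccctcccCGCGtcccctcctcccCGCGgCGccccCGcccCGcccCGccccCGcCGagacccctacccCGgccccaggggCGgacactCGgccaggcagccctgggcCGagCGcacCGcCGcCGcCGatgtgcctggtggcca
Fmod: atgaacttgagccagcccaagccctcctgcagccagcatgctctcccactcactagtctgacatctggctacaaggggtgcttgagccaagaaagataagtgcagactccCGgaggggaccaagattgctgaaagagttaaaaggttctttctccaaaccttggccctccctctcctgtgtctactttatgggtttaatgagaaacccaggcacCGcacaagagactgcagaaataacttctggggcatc
C1qtnf3: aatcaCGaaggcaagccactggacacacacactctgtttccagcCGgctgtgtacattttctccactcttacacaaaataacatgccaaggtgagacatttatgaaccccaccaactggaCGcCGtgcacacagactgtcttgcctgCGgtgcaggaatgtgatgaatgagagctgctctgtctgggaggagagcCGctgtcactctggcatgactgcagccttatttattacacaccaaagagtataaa
The Igf2bp3 window holds 21 CpG and the Phf19 window 31, counts that 23.1% and 6.96% of the 14739 windows of tested genes reach. The Fmod window holds 2 and the C1qtnf3 window 6, reached by 86.7% and 67.1%. These 4 windows do not stand for their groups: over the same bases the median was 16 CpG for 213 lower genes, 14.5 for 124 higher genes and 11 for all windows, so that the Fmod and C1qtnf3 windows lie below the median of the higher genes. Windows were found for 78.6% of the lower and 76.5% of the higher genes, too few for a comparison of both groups, which is therefore void. No H3K27me3 was measured on these arrays, and a CpG count says nothing of PRC2 binding in these cells.

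Genes higher in Ezh1 pre-rescue cells included extracellular matrix genes. Of 35 matrix and fibroblast genes, 10 were higher (28.6%, beside 0.861% of all genes) and 0 lower. The list median was 0.43, beside 0.03 for all genes. Fmod, a small proteoglycan that organises collagen fibrils, read 7.29 and 6.47 in null cells and 9.52 and 9.71 in Ezh1 pre-rescue cells (2.73 ± 0.30, 6.64-fold, adjusted p = 0.0111). Eln, which encodes elastin, read 8.60 and 7.80 against 10.61 and 10.49 (2.35 ± 0.33, adjusted p = 0.0192). In both genes all 4 arrays kept apart by group, and null replicate 2 was the lowest. Col6a3 gave 1.20 ± 0.18 and Col6a1 0.71 ± 0.11, chains of microfibrillar collagen VI (adjusted p = 0.0264 and 0.0262). The other 6 were Col1a2, Col5a2, Col6a2, Fbln5, Thbs1 and the PDGF receptor gene Pdgfrb. The 10 became 0 without either Ezh1 pre-rescue array, 2 without null replicate 2, 5 without an Ezh2 pre-rescue and 4 without an Ezh2 post-rescue array, and 1 member was lower without a control array.

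Genes outside that list, among the largest differences of the higher group, had varied roles. Edil3, an integrin ligand, read 8.25 and 7.17 against 9.89 and 9.87 (2.17 ± 0.42, adjusted p = 0.0485), the tight junction gene Cldn19 8.86 and 7.99 against 10.10 and 10.34 (1.80 ± 0.27, adjusted p = 0.0265), and C1qtnf3, a secreted C1q and TNF related protein, 10.56 and 10.64 against 11.89 and 11.90 (1.29 ± 0.09, adjusted p = 0.0026). Control arrays lay at or near the Ezh1 pre-rescue level in all 3. Colgalt2, which glycosylates collagen, gave 1.51 ± 0.27, Xylt1, which starts proteoglycan chains, 1.49 ± 0.20 and Mxra8, a matrix remodelling protein, 1.36 ± 0.20 (adjusted p = 0.041, 0.0174 and 0.0257). The Mxra8 difference shrank to 0.78 when the mean of all its probe sets was used. Fam180a, of unknown function, read 6.57 and 6.84 against 8.27 and 8.52 (1.69 ± 0.13, adjusted p = 0.00276). Dhrs3, which reduces retinaldehyde to retinol, read 6.92 and 5.97 against 8.67 and 8.44 (2.11 ± 0.34, adjusted p = 0.0312) and stood above its control arrays at 7.37 and 7.95. It was the single gene of 19 in the retinoid list to pass (5.26%, beside 0.861% higher of all genes). P2ry10b, which encodes a G protein-coupled receptor, gave 1.63 ± 0.16 and Akap6, which anchors protein kinase A, 1.50 ± 0.25 (adjusted p = 0.00874 and 0.0355). Srpx, Rasgrp3, Fbxo32 and Megf9 were higher as well, by 1.46, 1.45, 1.27 and 1.26.

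**Figure D3:**
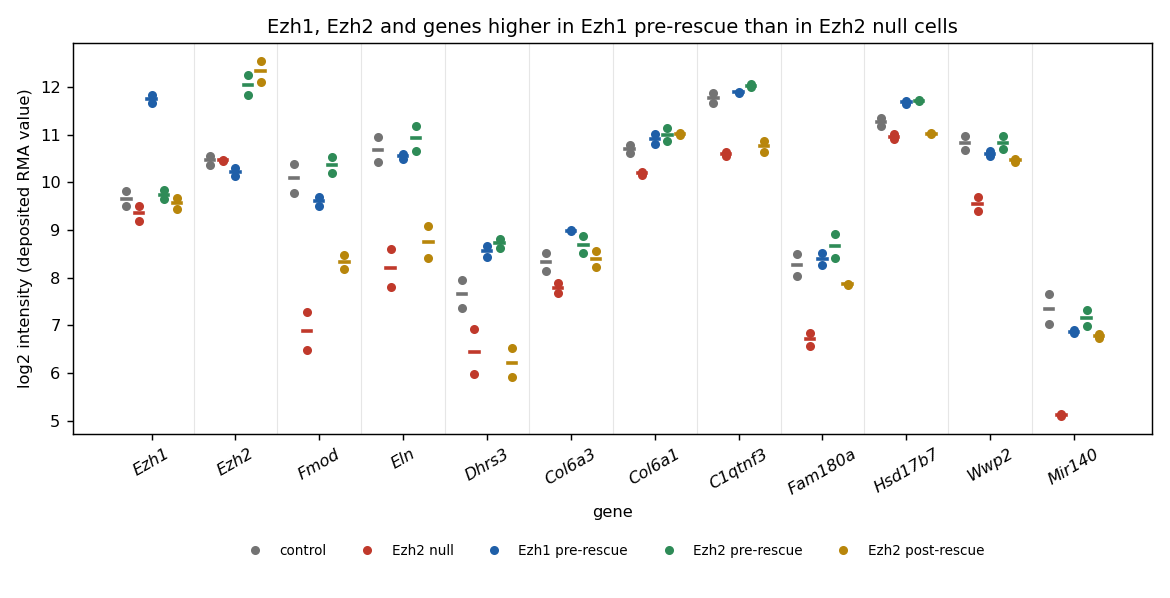
Log2 intensity (y axis) of Ezh1, Ezh2 and 10 genes higher in Ezh1 pre-rescue cells (x axis) on the 10 rescue arrays, 1 point per array coloured by group, with a bar at the group mean. Ezh1 stands at 11.68 and 11.85 only in its own rescue, and for Fmod to Mir140 the null points lie lowest beside the control and pre-rescue points.

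Cartilage genes stood beside the matrix genes. Of 21 cartilage and bone genes 1 was higher (4.76%, beside 0.861% of all genes) and 0 were lower. It was Cnmd, which encodes the cartilage glycoprotein chondromodulin, at 7.27 and 7.82 against 8.78 and 8.72 (1.20 ± 0.15, adjusted p = 0.0152). The list median was 0.40, and Col11a1 (1.81 ± 0.38, adjusted p = 0.0575), Sox6 (1.77 ± 0.38, adjusted p = 0.0593) and Col9a1 (1.37 ± 0.28, adjusted p = 0.0541) did not pass. The 1 became 8 without a control array, 6 and 3 without null replicate 1 and 2 and 0 without either Ezh1 pre-rescue array. The mean of the 4 cartilage markers was 7.85 to 7.92 on the Ezh1 pre-rescue and 7.31 to 7.40 on the null arrays, and that of 4 smooth muscle markers 7.54 to 7.57 and 6.97 to 7.16, with 0 of these 8 passing. The part of such cells in the matrix genes was not tested, and in bulk RNA more cells of a type and more RNA per cell cannot be told apart.

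Of 303 miRNA genes 2 were higher and 2 lower, shares no larger than the 0.861% and 1.44% of all genes. These 4 were chosen for the text after their values were seen. Mir140, a cartilage miRNA gene that lies within the ubiquitin ligase gene Wwp2, read 5.13 and 5.10 in null cells and 6.89 and 6.83 in Ezh1 pre-rescue cells (1.75 ± 0.18, adjusted p = 0.00874), and Wwp2 read 9.70 and 9.41 against 10.55 and 10.65 (1.04 ± 0.14, adjusted p = 0.0174). Host gene and miRNA gene were thus both higher on each Ezh1 pre-rescue array than on either null array. Mir145a was higher by 1.05 ± 0.19 (adjusted p = 0.0398). Mir18 (−1.15 ± 0.13, adjusted p = 0.012) and Mir19a (−0.86 ± 0.14, adjusted p = 0.0353) were lower, as was Mir17hg, the host transcript of both (−0.61 ± 0.11, adjusted p = 0.043), a locus that c-Myc is known to activate. Mir19b-1 of the same transcript gave −0.80 ± 0.21 (adjusted p = 0.0847), Mir20a −0.51 ± 0.21 (adjusted p = 0.22) and Mir17 −0.19 ± 0.09 (adjusted p = 0.311). Probe sets for miRNA genes read precursor or host RNA, not the mature miRNA. The mature sequences are given (RefSeq, GRCm38.p6) to show what these genes encode, with the seed, bases 2 to 8, in capitals; miR-19a and miR-19b share their seed.
miR-140-3p: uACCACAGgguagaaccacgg
miR-18a-5p: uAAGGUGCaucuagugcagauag
miR-19a-3p: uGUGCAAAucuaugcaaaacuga
miR-19b-3p: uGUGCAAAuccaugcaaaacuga

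Cholesterol synthesis gave differences in 1 direction. Of 18 genes 6 were higher (33.3%, beside 0.861% of all genes) and 0 lower. All 18 differences were positive (0.30 to 1.19) and the median was 0.51. Hsd17b7, which acts late in the pathway, read 10.91 and 11.01 in null cells and 11.72 and 11.66 in Ezh1 pre-rescue cells (0.73 ± 0.08, adjusted p = 0.0124). The mevalonate enzyme gene Mvd gave 0.89 ± 0.16, the lanosterol synthase gene Lss 0.57 ± 0.10 and Insig1, which restrains the pathway, 0.52 ± 0.09 (adjusted p = 0.041, 0.0395 and 0.041). The other 2 were Hmgcs1 and Nsdhl. The 6 became 16 without a control array, 3 and 1 without null replicate 1 and 2, 1 without an Ezh2 pre-rescue or post-rescue array and 0 without either Ezh1 pre-rescue array. Ezh1 pre-rescue cells exceeded not only null but also control arrays in Hsd17b7, whose control values were 11.19 and 11.35.

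Few proliferation and Myc target genes passed, though 3.70% and 10% of them were lower, beside 1.44% of all genes. All 27 proliferation genes gave differences below 0, with a median of −0.43 and a range of −0.66 to −0.13, and 1 passed, the licensing factor gene Cdt1 (−0.66 ± 0.09, adjusted p = 0.0191), which became 4 without a control array and 0 without an Ezh1 pre-rescue or Ezh2 post-rescue array. The median became −0.22 without null replicate 1 and −0.24 without Ezh1 pre-rescue replicate 1. Of 30 Myc target and ribosome biogenesis genes, 29 with differences below 0, 3 were lower and 0 higher (median −0.37), which were Rrs1 (−0.72 ± 0.09, adjusted p = 0.0143), the polyamine enzyme gene Odc1 (−0.66 ± 0.09, adjusted p = 0.0217) and Gar1 (−0.47 ± 0.09, adjusted p = 0.0493). Null replicate 1 carried more proliferation signal than null replicate 2, with list means of 10.40 and 9.88 against 9.71 to 9.76 in Ezh1 pre-rescue cells. Its part in these differences was not tested. The 3 Myc target genes became 0 without null replicate 2 or either Ezh1 pre-rescue array, 1 without an Ezh2 post-rescue array, 7 without null replicate 1 and 13 without a control array. Of 10 inhibitors of the cell cycle 1 was lower (10%, beside 1.44% of all genes) and 0 higher. It was Cdkn1a, which encodes the CDK inhibitor p21, at 8.25 and 7.95 against 6.79 and 6.79 (−1.30 ± 0.18, 2.47-fold, adjusted p = 0.0181). Cdkn2a, the Ink4a and Arf locus that PRC2 silences in primary fibroblasts, gave 0.05 ± 0.08 (adjusted p = 0.789, with −0.036 to 0.132 without single arrays). No gene among 19 p53 targets passed in limma, while 5 had an unadjusted p under 0.05, and the largest difference of them, Trp53inp1, gave 2.10 ± 0.52 (adjusted p = 0.0758).

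Immune genes gave single calls, which in lists this small make shares above the 1.44% of all genes that were lower. These shares were 6.45% of interferon response, 9.09% of antigen presentation and 5% of chemokine genes. Of 31 interferon response genes 2 were lower and 0 higher (median −0.19), the antiviral gene Rsad2 at 8.36 and 7.83 against 6.58 and 6.53 (−1.54 ± 0.21, adjusted p = 0.0191) and the GTPase gene Gbp2 (−0.81 ± 0.11, adjusted p = 0.017). The median became −0.046 and −0.40 without null replicate 1 and 2, and −0.31 and −0.081 without Ezh1 pre-rescue replicate 1 and 2, and the 2 lower genes became 5 without null replicate 2 and 0 without either Ezh1 pre-rescue array. Of 11 antigen presentation genes, the MHC class I gene H2-K1 was lower (−1.13 ± 0.20, adjusted p = 0.0401), a value that is uncertain because class I genes are near-identical. Of 20 chemokine genes Ccl20 was lower (−0.75 ± 0.11, adjusted p = 0.0199). In the remaining lists, Vldlr was the 1 lower gene of 19 (5.26%) of the integrated stress response (−0.89 ± 0.12, adjusted p = 0.0181). Of 22 glycolysis and hypoxia genes Hk1 was higher (0.68 ± 0.08) and Pfkp (−1.01 ± 0.13) and Vegfa (−0.71 ± 0.11) lower (adjusted p = 0.0134, 0.0168 and 0.0288). These 22 gave 4.55% higher and 9.09% lower, beside 0.861% and 1.44% of all genes. None of 25 imprinted genes passed in limma (8 at an unadjusted p under 0.05), and neither did any of 118 genes in the lists of smooth muscle, skeletal muscle, adipocyte, neuronal, epithelial, endothelial, blood, pluripotency and germline genes, whose medians lay between 0.02 and 0.28 (14 at an unadjusted p under 0.05, 6 of them of the 10 smooth muscle genes).

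**Figure D4:**
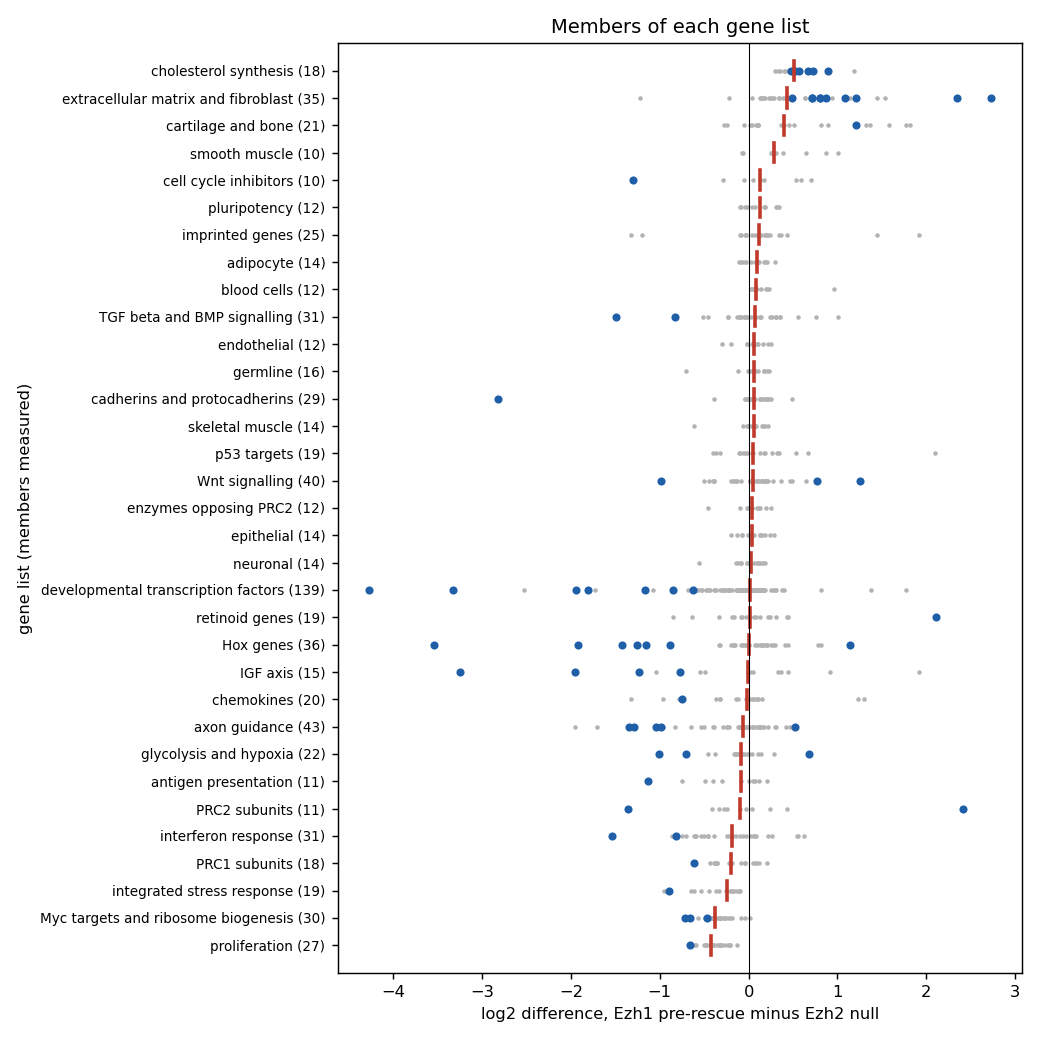
Log2 difference between Ezh1 pre-rescue and Ezh2 null cells (x axis) for each measured member of 33 gene lists (y axis, ordered by median), with members that passed an adjusted p of 0.05 in blue, the others in grey and the list median as a red bar. Cholesterol synthesis (0.51) and extracellular matrix (0.43) lie highest, Myc targets (−0.37) and proliferation (−0.43) lowest, while Hox and developmental factor lists have medians near 0 with single members far below it.

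The next question was how the genes that respond to loss of Ezh2 behave when Ezh1 is in place, and these genes were chosen on the time course, which shares the clone but no array with the rescue experiment. At both day 18 and day 32, 326 genes were called higher than vehicle (1.73%, the risen set) and 160 lower (0.850%, the fallen set). In Ezh1 pre-rescue against null cells, 101 of the 326 risen genes were lower and 0 higher (31.0%, beside 1.44% of all genes), 54 of them at least 2-fold. The median of the risen set was −0.67 and 312 of its members lay below 0. Of the 160 fallen genes 35 were higher and 0 lower (21.9%, beside 0.861%), 22 of them at least 2-fold, and the median was 0.61. Read from the other side, the risen set held 37.3% of the 271 lower genes and 76.1% of the 71 that were at least 2-fold lower, and the fallen set held 21.6% of the 162 higher genes and 57.9% of the 38 at least 2-fold higher. Across 18820 genes, which are not independent replicates, the difference correlated with that of day 32 at r = −0.70, of day 18 at −0.66 and of day 5 at −0.09. The 101 became 10 without Ezh1 pre-rescue replicate 1, 17 without its replicate 2, 50 without null replicate 2, 159 without a control array, 64 without an Ezh2 pre-rescue array and 53 without an Ezh2 post-rescue array. The 35 became 2 without either Ezh1 pre-rescue array, 15 and 65 without null replicate 2 and 1, 78 without a control array, 18 without an Ezh2 pre-rescue array and 12 without an Ezh2 post-rescue array, while both medians kept their sign.

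Levels per array placed Ezh1 pre-rescue cells near control cells. The median risen gene stood 0.76 and 0.88 above the control mean on the null arrays and 0.05 and 0.09 above it on the Ezh1 pre-rescue arrays. The same median was −0.02 and 0.003 on the Ezh2 pre-rescue and 0.32 and 0.18 on the Ezh2 post-rescue arrays. The fallen set stood at −0.57 and −0.77 on the null arrays and at −0.002 and −0.05 on the Ezh1 pre-rescue arrays. It stood at 0.09 and 0.27 on the Ezh2 pre-rescue and at −0.29 and −0.21 on the Ezh2 post-rescue arrays. Null and Ezh1 pre-rescue arrays did not overlap in either set. These groups share the control arrays as their reference.

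**Figure D5:**
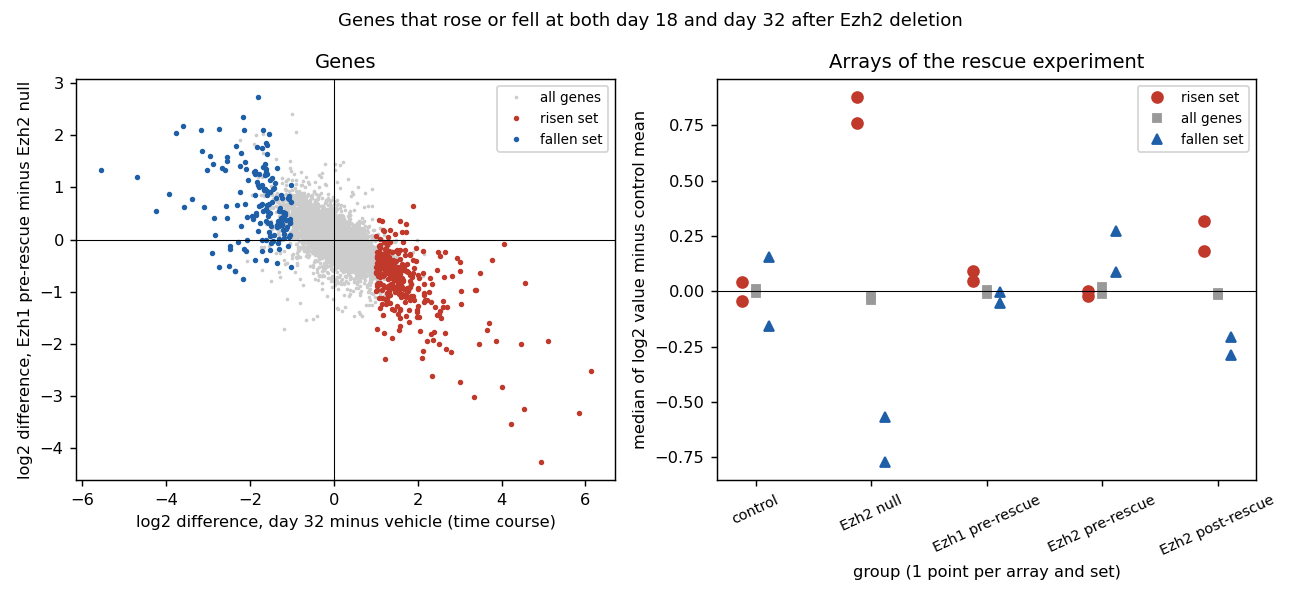
Left, log2 difference between Ezh1 pre-rescue and null cells (y axis) against that between day 32 and vehicle (x axis), 1 point per gene, with the risen set in red and the fallen set in blue; right, median of each set relative to the control mean (y axis) on each of the 10 rescue arrays (x axis, by group). The risen set lies mostly below 0 on the left, and on the right its medians are 0.76 and 0.88 on the null and 0.05 and 0.09 on the Ezh1 pre-rescue arrays.

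Some risen genes stayed above the control level in Ezh1 pre-rescue cells. Of the risen set, 134 genes stood at least 2-fold above control in null cells (1.07% of all genes did so at any p). Of these 134, 23 also did so in Ezh1 pre-rescue cells, against 6 in Ezh2 pre-rescue cells. Among all 18820 genes the counts were 63 (0.335%) and 32. The control arrays that served to pick the 134 are also the reference for both rescues. Cpa6, a carboxypeptidase gene, was the foremost of the 23. It read 5.13 and 5.02 in control, 9.25 and 8.90 in null, 7.73 and 8.74 in Ezh1 pre-rescue and 5.14 and 5.22 in Ezh2 pre-rescue cells. Its difference from null cells did not pass (−0.84 ± 0.35, adjusted p = 0.234). The Ezh1 pre-rescue arrays lay below both null arrays, as for 22.2% of all genes, and far above both control arrays.

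Replicates of the Ezh1 pre-rescue differed in several of these genes. The forkhead factor gene Foxp2 read 9.83 and 9.91 in null cells but 6.14 and 8.54 in Ezh1 pre-rescue cells (−2.53 ± 0.66, adjusted p = 0.0836), and the ubiquitin ligase gene Rnf128 read 8.84 and 8.67 against 5.88 and 7.63 (adjusted p = 0.0702). In Rorb, Cpa6, Foxp2 and Rnf128 replicate 2 was the higher one each time. In all, 8 risen genes were at least 2-fold higher on replicate 2 than on replicate 1 and 2 the reverse, where all genes gave 9 and 3, so that most large gaps between these arrays fell on risen genes. On the null arrays the risen set gave 19 and 10, and all genes 40 and 69. Efna5, an ephrin gene, showed such a gap between null arrays, at 6.19 and 8.20 against 5.27 and 5.23 (−1.95 ± 0.54, adjusted p = 0.0955). Among the 23, Rorb and Rragd passed all the same, as did Akr1c14, a hydroxysteroid dehydrogenase gene, at 8.28 and 8.88 against 6.98 and 6.86 (−1.66 ± 0.21, adjusted p = 0.0156), with control arrays at 5.50 and 5.66.

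How many genes told the Ezh1 pre-rescue apart from control cells or from the Ezh2 pre-rescue depended on the fit. Against control, 2 genes passed (0.0106%) and both were higher, Ezh1 (2.10 ± 0.16, adjusted p = 0.027) and the IGF binding protein gene Igfbp4, which was chosen after its values were seen (1.90, adjusted p = 0.0312). From null cells Igfbp4 differed by only 0.44 ± 0.16 in limma (adjusted p = 0.171), so that null cells stood above control in this gene as well. Against the Ezh2 pre-rescue, 1 gene passed (0.00531%), Ezh1 itself (2.02 ± 0.16, adjusted p = 0.0363). Ezh2, which the other rescue overexpresses, gave −1.83 ± 0.17 (adjusted p = 0.076) and Cpa6 3.06 ± 0.35 (adjusted p = 0.193). Cpa6 read 7.73 and 8.74 on the Ezh1 and 5.14 and 5.22 on the Ezh2 pre-rescue arrays. The ephrin receptor gene Epha3, chosen after its values were seen, gave 1.73 ± 0.22 (adjusted p = 0.312). Fitted on the 4 arrays of both rescues alone, 38 genes passed, among them Ezh2 (adjusted p = 0.00993), Cpa6 (adjusted p = 0.00661) and Epha3 (adjusted p = 0.00181), and 10 passed against control in such a fit. Without Ezh1 pre-rescue replicate 1 Cpa6 passed (3.71, adjusted p = 0.0153), as did Epha3 without a control array (adjusted p = 0.00785). Without Ezh1 pre-rescue replicate 2, or without an Ezh2 pre-rescue or post-rescue array, 0 genes passed in either comparison, and 464 passed against control without control replicate 2. Leaving out either null array gave 0 against the Ezh2 pre-rescue. A gene that missed the threshold is not thereby shown to be alike in both rescues, and the median gene of the risen set was 0.10 higher with Ezh1 than with Ezh2.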

How the data were processed

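The deposited log2 values come from Affymetrix Mouse Gene 1.1 ST arrays of total RNA, and per the study's methods the authors made them by RMA with the R package oligo. A linear-model correction of a batch between first and second replicates of the rescue experiments is stated, and whether the deposited values carry it is not given in the sources used here. The time course and the rescue experiment lie on separate scales, so levels were compared only within each.

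Of 28440 probe sets, 21217 have 1 gene symbol, 1881 several and 5342 none in the platform annotation, and 21184 of the first matched a current gene. Each of 18820 genes was read from its brightest probe set, a choice that concerned 1386 genes. limma 3.58.1 (R 4.3.3) was fitted to the 10 rescue arrays with group and replicate number, and tests were two-sided with Benjamini-Hochberg adjustment over all genes. Higher and lower stand for an adjusted p under 0.05. The time course was fitted without the block, and its sets hold genes called at an adjusted p under 0.05 and at least 2-fold at both late times. The script was tested on simulated data. The rank product test of the methods was not run.

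The members and all gene lists were chosen with earlier results of these data known. Named were Ezh1, the other PRC2 genes, Cpa6, Cdkn2a and Cdkn1a, up to 20 genes per direction by size, up to 4 per list by adjusted p, and up to 6 per time-course set. Gene models without a proper name and small RNAs other than miRNA genes were not named. The miRNA genes with Mir17hg and Wwp2, Akr1c14, Igfbp4, Epha3, and the passing list members Col1a2, Col5a2, Col6a2, Fbln5, Thbs1, Pdgfrb, Dlx4, Gata3, Ephb3, Hmgcs1, Nsdhl, Hoxb6 and Hoxd10 fall outside this rule and were named after their values were seen. Settings tried were the block, the 2 groups alone, median centring, quantile normalization, a filter on low signal, the mean of probe sets, an intensity trend, another threshold, and each array left out.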

Additional observations from a re-analysis of the deposited data

Results flagged for a closer look

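Ezh1 differed between the Ezh1 and the Ezh2 pre-rescue, measured against the same null arrays, by 2.02 on the log2 scale (limma, adjusted p = 0.0363 over all genes). Ezh1 is the gene that the first of these rescues overexpresses. Groups of 2 arrays were too small to test single arrays as outliers.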

How the results depend on the processing

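With 2 arrays a group, counts of genes that passed moved more than directions. Of 115 reported genes 95 had passed in the full fit, so that their direction could hardly turn and its stability says little. Leaving out 1 array at a time gave 3 to 817 genes higher and 11 to 800 lower, 3 to 154 and 11 to 174 at least 2-fold, 0 to 464 different from control, 0 to 3 different from the Ezh2 pre-rescue, 10 to 159 risen genes lower and 2 to 78 fallen genes higher. The risen median ranged from −0.73 to −0.60 and the fallen median from 0.48 to 0.77. These ranges include the time-course arrays left out, an alternative chosen after seeing the data. Cdkn2a (0.05) turned sign in 2 of these and ranged from −0.036 to 0.132.

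The replicate numbers did not meet the criteria for pairing, which a batch correction already in the values could hide: same-numbered arrays of different groups correlated in their deviations at r of −0.43 to 0.54 over 10 pairs of groups, 6 of them negative, and −0.17 for the Ezh1 pre-rescue and null. No replicate block gave 390 genes higher and 468 lower, 4 different from control, 2 from the Ezh2 pre-rescue and 56 fallen genes higher. The block in the time course left 101 and 35 as they were. The 2 groups alone gave 76 higher and 74 lower, 10 different from control, 38 from the Ezh2 pre-rescue and 62 risen genes lower. Quantile normalization gave 366 higher and 55 fallen genes higher, and an intensity trend 319 higher and 2 different from the Ezh2 pre-rescue. Median centring gave 179 lower and a fallen median of 0.68, which was 0.64 without the lowest 30% of genes. Sets called at day 32 alone gave a risen median of −0.58 and 56 fallen genes higher. The mean of all probe sets of a gene gave 159 higher and 261 lower, and all 115 reported genes kept their call. At an adjusted p of 0.15, 87 genes were at least 2-fold higher and 111 lower. The causes were not tested. Of the 95 named genes that passed, 53 passed under all settings that keep every array.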
